A study of Rattus norvegicus with 48 samples.

Results

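Lungs of rats that had inhaled fracking sand dust together with diesel particles were compared at day 27 with lungs of rats that had breathed filtered air. The comparison uses the 16 libraries of the day 27 table, 8 exposed and 8 air, out of 48 libraries in the series. The others were taken at days 1 and 7, and the labels do not say from which event the days count. All animals were male Sprague-Dawley rats. The exposed group inhaled, with the whole body in the chamber, 30 mg/m3 of the sand dust and 1 mg/m3 of diesel particles in sessions of 6 hours on 4 days, and the air group had filtered air on the same schedule. RNA from a piece of each lung was sequenced as polyadenylated transcripts. Each library carries its own animal number, so a library is taken as 1 rat. Cages held 2 rats, and which animals shared one is not given. Both agents were given together, so dust and diesel cannot be told apart.

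Fracking sand dust is a mineral dust that holds crystalline silica, and silica and diesel soot are cleared from the lung slowly, mainly by alveolar macrophages. Inhaled silica is known for inflammation, organised lymphoid tissue around airways and scarring, which involve macrophages, lymphocytes, fibroblasts and the growth factor TGF-beta. Genes that every cell uses include those for ribosomal proteins, respiratory chain subunits and chaperones of the endoplasmic reticulum (ER). Those for ribosomal proteins and ER chaperones are known to follow the amount of protein synthesis and secretion in the tissue.

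Libraries are numbered from 1 to 8 within each group in the order of their animal numbers. Air libraries 3 and 6, from animals 283 and 286, lay closer together than any other 2 of the 16: over 13429 genes their median squared count difference was 1.67 times counting noise, against 2.57 for the next closest and 17.7 for the farthest of 120 pairs. Results are therefore given with 16 libraries and again with the counts of these 2 libraries added together as 1 sample, called the summed fit. Library totals ran from 10121458 to 13198852 counts in the air group and from 9445675 to 13382111 in the exposed group, and the exposed mean differed by -1.09% (exact permutation test, two-sided, p = 0.841). Lung markers were present in every library. The summed level of alveolar type 2 genes ran from 39622 to 46774 CPM in the air libraries and 36900.1 to 42552 CPM in the exposed libraries (CPM, counts scaled to library size with TMM factors). That of endothelial genes ran from 9017 to 9917 CPM in the air libraries and 8885 to 9839.9 CPM in the exposed libraries.

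With 16 libraries, 783 of 14192 genes tested differed at an adjusted p under 0.05 (5.52%), 310 higher (2.18%) and 473 lower (3.33%) in exposed lungs. In median, the called genes moved by an absolute log2 fold change of 0.24, and 18 of them were past 1.5-fold. An unadjusted p under 0.05 was found for 3790 of the 14192, the background for such counts in the lists below. The summed fit called 31 of 14255 genes (0.217%), 10 higher (0.0702%) and 21 lower (0.147%), and all 31 were among the 783. With both libraries of the pair left out, an alternative chosen after seeing the data, edgeR called 0 genes, while 2721 of 14309 had an unadjusted p under 0.05. Single libraries also moved the count by more than 1.5 times. It was 9, 46 and 92 when exposed rat 3, 8 or 7 was omitted and 23 and 69 when air rat 6 or 3 was. Omitting air rat 2 or exposed rat 2 raised it, to 1926 and 1508. The count lay between 111 and 450 when air rat 5, 7 or 8 or exposed rat 1, 5 or 6 was omitted, and between 591 and 1160 for the remaining 3. In 36 genes (0.254% of those tested) all 8 exposed values lay above all 8 air values, and in 30 (0.211%) all lay below. Of these genes, 34 of the higher and 28 of the lower were among the 783.

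Start sites of ribosomal protein genes are shown first, because these genes made up the largest called group of the lists examined. Messenger RNAs of ribosomal proteins typically begin with a run of pyrimidines through which growth signals set their translation. RefSeq promoter windows (build GRCr8, 250 bases before to 50 after the annotated start) were found for 55 of the 71 ribosomal protein genes tested. The 6 shown have the smallest p among the called genes with a window, and each line gives 40 bases before and 20 from the start, with the run of at least 8 C or T that overlaps the 10 bases on either side of the start in capitals. Their positions are Rpl28 at chr1:78083513-78083572, minus strand, Rps2 at chr10:14251808-14251867, plus strand, Rpl29 at chr8:115947603-115947662, plus strand, Rpl36 at chr9:1533740-1533799, plus strand, Rpl34 at chr2:221962264-221962323, minus strand and Rps15 at chr7:10068096-10068155, minus strand.
Rpl28: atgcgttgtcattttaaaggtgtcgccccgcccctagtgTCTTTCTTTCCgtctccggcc
Rps2: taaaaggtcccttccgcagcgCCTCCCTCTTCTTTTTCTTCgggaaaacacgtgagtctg
Rpl29: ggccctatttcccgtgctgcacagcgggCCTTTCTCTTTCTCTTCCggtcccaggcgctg
Rpl36: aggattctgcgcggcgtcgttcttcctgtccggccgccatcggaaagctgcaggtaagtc
Rpl34: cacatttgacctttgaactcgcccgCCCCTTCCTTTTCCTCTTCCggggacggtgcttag
Rps15: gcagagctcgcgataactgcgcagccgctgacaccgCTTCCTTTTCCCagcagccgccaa
Rpl36 has no such run in this window. A run was found in 36 of the 55 windows (65.5%), against 13.1% of the windows of all genes tested and 13.2% of all 27457 windows. It was present in 16 of the 25 windows of ribosomal protein genes called lower (64%) and in 20 of the 30 not called (66.7%), so the shares were close whether or not a gene was called. The nuclear genes of the respiratory chain had it in 12.8% of their windows and mitochondrial ribosomal protein genes in 15.8%.

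Promoters of ER chaperone genes are shown because Hsp90b1 and Canx rose and carry the ER stress element, the site through which the factors ATF6 and XBP1 are known to act. The element searched was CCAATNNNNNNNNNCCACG, on both strands, and matches are in capitals. The stretches are Hsp90b1 at chr7:23012327-23012489, minus strand, Canx at chr10:35158049-35158107, minus strand and Hspa5 at chr3:38452953-38453011, plus strand, in the same build.
Hsp90b1: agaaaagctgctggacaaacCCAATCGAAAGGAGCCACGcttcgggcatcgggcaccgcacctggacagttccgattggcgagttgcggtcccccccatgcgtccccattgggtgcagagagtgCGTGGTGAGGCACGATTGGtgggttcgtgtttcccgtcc
Canx: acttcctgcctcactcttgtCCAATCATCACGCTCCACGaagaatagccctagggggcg
Hspa5: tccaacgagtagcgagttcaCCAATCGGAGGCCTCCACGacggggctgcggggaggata
Hsp90b1 has 2 matches, the second of them on the other strand, and Canx and Hspa5 have 1 each. The element was found in 7 of the 23 ER list genes with a window (30.4%), against 0.151% of the windows of all genes tested and 0.0765% of all windows. Of those genes, Hsp90b1 and Canx passed the test at day 27, and Hspa5, Calr, Dnajc3, Creld2 and Xbp1 did not.

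The 31 genes called in both fits changed by 11.3% to 23.2% upwards and by -12.8% to -28.5% downwards. In 16 of them the air and exposed libraries did not overlap, as in 0.254% of all genes tested upwards and 0.211% downwards. The 31 were chosen by tests on these same libraries, so this separation adds no support. Anapc13, Fcgrt, G6pc3, Imp3, Rrbp1 and Smurf2 stayed under an adjusted p of 0.05 in each of the 16 fits that left out 1 library, as did Rnasek, which is named after its values were seen because its name falls outside the rule for named genes. The other 24 passed in 13 to 15 of those fits.

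**Figure D1:**
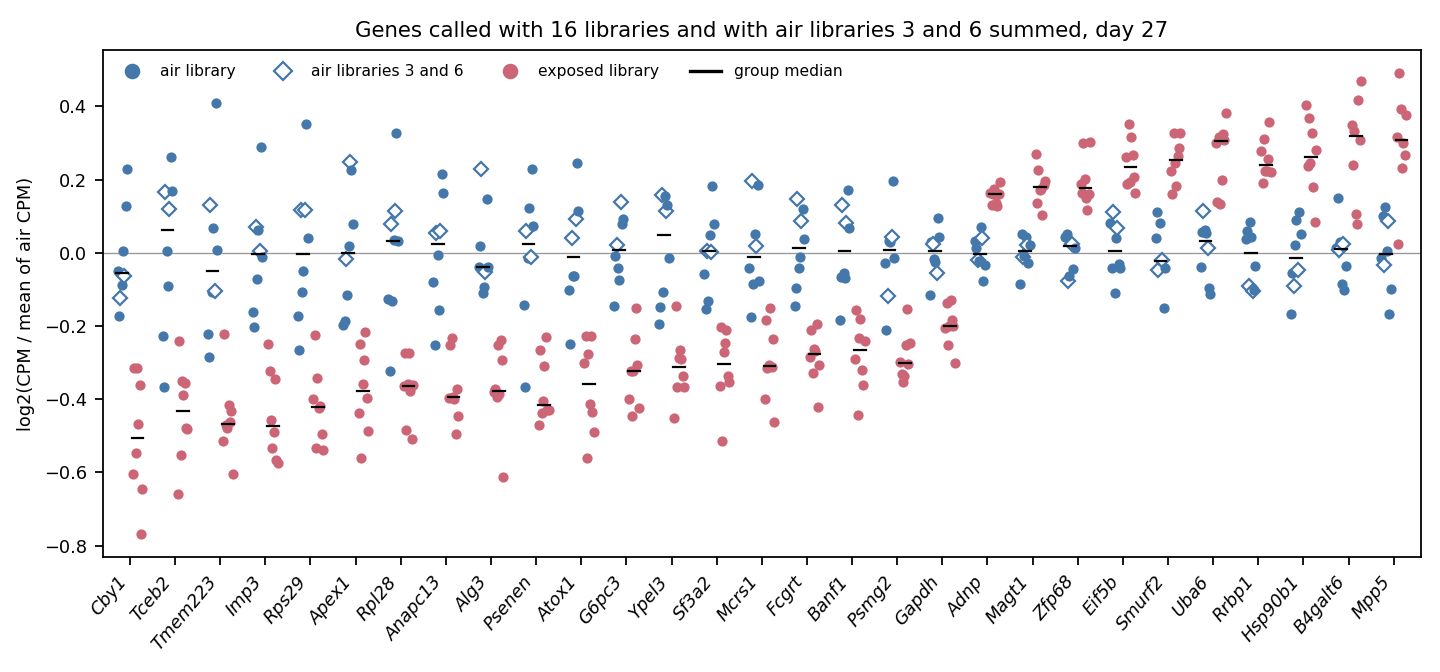
Level of the 29 named genes called in both fits in every library, as log2 of CPM over the mean of the air group with libraries 3 and 6 averaged. Points are libraries, diamonds are air libraries 3 and 6 and bars are group medians; in Smurf2, Rrbp1, Eif5b, Imp3 and Gapdh no exposed point overlaps the air points, while in Rps29 and Rpl28 they do.

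Values after ± are standard errors from the fit of 8 exposed and 8 air libraries, and a second adjusted p marked as summed is from the summed fit. Among the genes that rose, Rrbp1, a ribosome-binding protein of the ER membrane, ran from 269 to 307 CPM (median 289.7) in air and 330.1 to 371 CPM (median 342) in exposed lungs. All exposed libraries lay above all air libraries, and the difference passed in both fits (log2 fold change 0.27 ± 0.039, adjusted p = 0.0158, and 0.0406 summed). Hsp90b1, the ER form of the chaperone HSP90, ran from 778 to 944 CPM (median 867) in air and 927 to 1157 CPM (median 1049) in exposed lungs. Its groups overlapped by 1 exposed library, number 7, which lay below the highest air library (log2 fold change 0.28 ± 0.05, adjusted p = 0.0208, and 0.0476 summed). Magt1, a subunit of the enzyme that adds sugar chains to new proteins, ran from 143 to 158 CPM (median 153) in air and 164 to 184 CPM (median 172) in exposed lungs, without overlap (log2 fold change 0.18 ± 0.032, adjusted p = 0.0208, and 0.0476 summed). Alg3, a mannosyltransferase that builds those chains, went the other way, from 14.7 to 18.6 CPM (median 15.5) in air and 10.4 to 13.5 CPM (median 12.2) in exposed lungs, also without overlap (log2 fold change -0.37 ± 0.069, adjusted p = 0.0208, and 0.0476 summed).

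Eif5b, a GTPase that joins the ribosomal subunits at the start codon, ran from 139 to 161 CPM (median 149.9) in air and 167 to 191 CPM (median 176) in exposed lungs, and the groups did not overlap (log2 fold change 0.23 ± 0.04, adjusted p = 0.0208, and 0.0406 summed). Smurf2, a ubiquitin ligase that targets TGF-beta receptors and Smad proteins, ran from 235 to 282 CPM (median 257) in air and 292 to 328 CPM (median 312) in exposed lungs. Every exposed library was above every air library (log2 fold change 0.26 ± 0.04, adjusted p = 0.0158, and 0.0406 summed). Uba6, a ubiquitin-activating enzyme, ran from 41.7 to 48.8 CPM (median 46.1) in air and 49.4 to 58.7 CPM (median 55.7) in exposed lungs, again without overlap (log2 fold change 0.26 ± 0.047, adjusted p = 0.0208, and 0.0476 summed). The zinc finger genes Adnp and Zfp68 also rose without overlap, with log2 fold changes of 0.15 ± 0.029 and 0.20 ± 0.037. B4galt6, which makes lactosylceramide, and the cell polarity gene Mpp5 rose by 0.29 ± 0.055 and 0.30 ± 0.058 with overlapping groups.

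Among the genes that fell, Imp3, which processes ribosomal RNA, ran from 34.3 to 48.2 CPM (median 39.4) in air and 26.5 to 33.2 CPM (median 28.4) in exposed lungs, with no overlap (log2 fold change -0.44 ± 0.069, adjusted p = 0.0158, and 0.0406 summed). Gapdh, the glycolytic enzyme often used as a reference gene, ran from 352 to 407 CPM (median 383) in air and 310.0 to 349 CPM (median 332) in exposed lungs. The 8 exposed values all lay below the 8 air values (log2 fold change -0.20 ± 0.036, adjusted p = 0.0208, and 0.0476 summed). Fcgrt, the receptor that recycles IgG and albumin, ran from 115 to 141 CPM (median 128) in air and 95.0 to 111 CPM (median 105) in exposed lungs, without overlap (log2 fold change -0.30 ± 0.046, adjusted p = 0.0158, and 0.0406 summed). G6pc3, a glucose-6-phosphatase, ran from 27.3 to 33.3 CPM (median 30.4) in air and 22.2 to 27.2 CPM (median 24.2) in exposed lungs, also without overlap (log2 fold change -0.33 ± 0.055, adjusted p = 0.0201, and 0.0467 summed).

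Of nuclear proteins, Apex1, the main nuclease for abasic DNA sites, ran from 24.5 to 33.4 CPM (median 28.1) in air and 19.0 to 24.2 CPM (median 21.6) in exposed lungs (log2 fold change -0.39 ± 0.074, adjusted p = 0.0208, and 0.0476 summed). Sf3a2, a part of the U2 splicing complex, ran from 37.7 to 47.6 CPM (median 42.1) in air and 29.4 to 36.4 CPM (median 34.0) in exposed lungs (log2 fold change -0.31 ± 0.056, adjusted p = 0.0208, and 0.0476 summed). Neither overlapped between groups. Cby1, an inhibitor of beta-catenin, had the largest fall of the 31, from 8.30 to 10.95 CPM (median 8.99) in air and 5.49 to 7.52 CPM (median 6.58) in exposed lungs, without overlap (log2 fold change -0.48 ± 0.089, adjusted p = 0.0208, and 0.0476 summed). Mcrs1 and Banf1, the latter a DNA-binding protein of the nuclear envelope, had log2 fold changes of -0.31 ± 0.059 and -0.29 ± 0.054 with overlapping groups.

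In protein turnover, Anapc13, a subunit of the anaphase-promoting ubiquitin ligase, Tceb2 (elongin B), Psmg2, which helps assemble proteasomes, and Psenen, a part of gamma-secretase, had log2 fold changes of -0.38 ± 0.065, -0.45 ± 0.083, -0.28 ± 0.056 and -0.37 ± 0.067. The groups of each overlapped, by 1 to 3 exposed libraries. Atox1, a copper chaperone, the mitochondrial gene Tmem223 and Ypel3 had -0.37 ± 0.068, -0.45 ± 0.085 and -0.33 ± 0.058, again with overlap.

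Of genes for cytosolic ribosomal proteins, 36 of 71 fell and 0 rose, against 3.33% called lower among all genes, and 70 of 71 log2 fold changes were below 0. Their median was -0.23, against -0.0081 over all genes tested. Rps29 ran from 367 to 563 CPM (median 440.4) in air and 304 to 378 CPM (median 329.8) in exposed lungs. Exposed library 2 was the only exposed library inside the air range (log2 fold change -0.43 ± 0.073, adjusted p = 0.0208, and 0.0476 summed). Rpl28 ran from 215 to 338 CPM (median 276) in air and 189 to 223 CPM (median 209) in exposed lungs, and the lowest air library, number 2, lay within the exposed range (log2 fold change -0.39 ± 0.07, adjusted p = 0.0208, and 0.0476 summed). The summed level of the list ran from 23391 to 32711 CPM in the air libraries and 22858 to 27049.7 CPM in the exposed libraries, so the groups overlapped. Copies of Rps29, Rps2, Rpl39, Rplp1, Rpl35a and Rpl32 share their name with other identifiers, and reads of such copies may be split between them. In the summed fit 2 of the 71 were called, Rps29 and Rpl28, with a median of -0.20. With the pair left out 0 of the 71 were called by edgeR, 69 were below 0 and the median was -0.17.

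Nuclear genes for respiratory chain subunits moved in the same direction, with 26 of 69 called lower against 3.33% of all genes, 0 higher, 68 below 0 and a median of -0.20. Ndufa7, a subunit of complex I, ran from 31.7 to 47.1 CPM (median 34.1) in air and 22.7 to 30.0 CPM (median 27.8) in exposed lungs, without overlap (log2 fold change -0.40 ± 0.082, adjusted p = 0.0255). Cox5b of complex IV ran from 69.1 to 87.3 CPM (median 79.0) in air and 62.0 to 69.2 CPM (median 66.2) in exposed lungs and overlapped by 1 library (log2 fold change -0.25 ± 0.047, adjusted p = 0.0208). Ndufb11 of complex I had -0.28 ± 0.055 (adjusted p = 0.0208). None of the 69 passed in the summed fit, where the median was -0.19, and it was -0.18 with the pair left out. Subunits encoded by mitochondrial DNA did not follow: 1 of 11, Mt-nd3, was called lower (log2 fold change -0.20 ± 0.057, adjusted p = 0.0491), 8 were above 0 and the median was 0.078. The difference between these lists was not tested.

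Of mitochondrial ribosomal protein genes, 9 of 72 were called lower against 3.33% of all genes and 0 higher, 70 were below 0 and the median was -0.14. Mrps17, Mrpl14 and Mrpl17 had log2 fold changes of -0.31 ± 0.073, -0.37 ± 0.088 and -0.24 ± 0.057, and none was called in the summed fit. With the span level of each library as a covariate, defined below, the list median was -0.034, with 50 of 72 below 0 and 0 called. Of proteasome subunits, 4 of 37 were called lower, against 3.33% of all genes, and the median was -0.086. Among the 4 were Psmb3 (-0.30 ± 0.073), Psmd9 (-0.24 ± 0.056) and Psmb2 (-0.22 ± 0.051). None of the 37 passed in the summed fit, and with the span level as a covariate the median changed sign, to 0.012 with 22 of 37 above 0. Translation initiation factors were split, with 4 of 52 called higher, against 2.18% of all genes, 2 called lower, against 3.33%, and a median near 0 (-0.00057). In the summed fit Eif5b alone of the 52 passed. Those that rose were Eif5b, Eif3a (295 to 351 CPM (median 336) in air and 359 to 413 CPM (median 385) in exposed lungs, without overlap; log2 fold change 0.21 ± 0.041, adjusted p = 0.0208), Eif3j (0.16 ± 0.036) and the scaffold gene Eif4g2 (0.12 ± 0.036). Those that fell were Eif6 (-0.24 ± 0.065), which keeps the large subunit free, and Eif5a (-0.21 ± 0.056), an elongation factor despite its name.

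Of 15 glycolysis genes, 2 were called higher and 1 lower. Hk2, an inducible hexokinase, ran from 14.1 to 19.3 CPM (median 16.9) in air and 19.2 to 24.5 CPM (median 20.1) in exposed lungs (log2 fold change 0.33 ± 0.073, adjusted p = 0.0288), and Hk1 rose without overlap (log2 fold change 0.16 ± 0.038, adjusted p = 0.0295), while Gapdh fell. The other 12 of 15 genes were not called, and the list median was -0.093. Of splicing factors, Hnrnpa3 rose (0.14 ± 0.039) and Snrpa (-0.36 ± 0.091) and Snrpb (-0.19 ± 0.05) fell, out of 36 tested. The shares over all genes were 2.18% called higher and 3.33% called lower. Hk1, Hk2 and these splicing genes had an adjusted p of 0.0572 to 0.0796 in the summed fit. With the span level as a covariate the medians changed sign, from -0.093 to 0.03 for glycolysis and from -0.034 to 0.0083 for splicing factors.

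**Figure D2:**
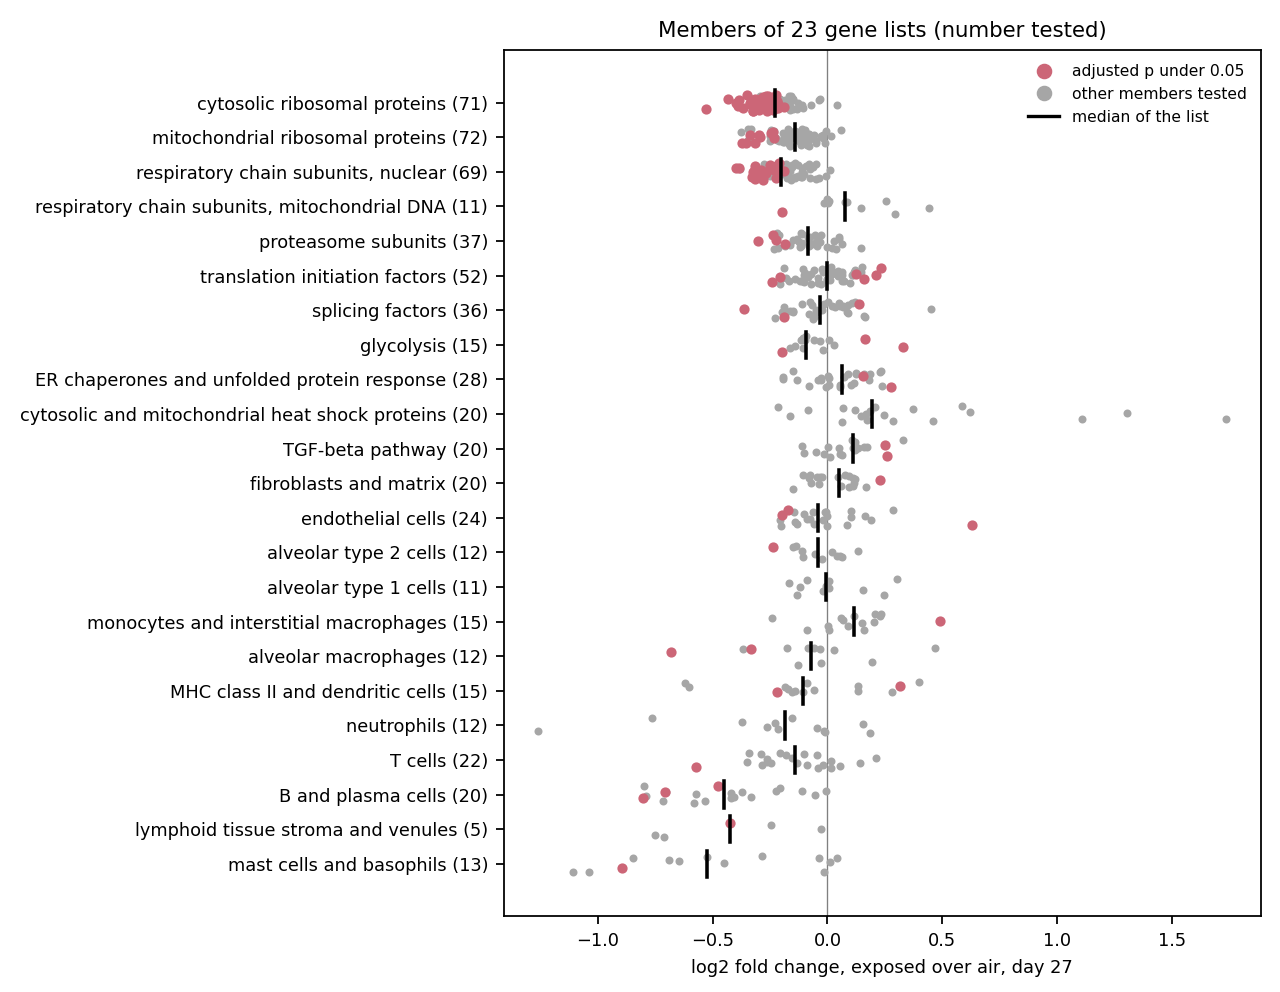
Log2 fold change at day 27 of every tested member of 23 gene lists, with the number tested in brackets; coloured points passed an adjusted p of 0.05 with 16 libraries and bars are list medians. Ribosomal protein and nuclear respiratory chain genes lie to the left of 0 with small spread, the 11 mitochondrially encoded genes do not, and the B cell, lymphoid stroma and mast cell lists have medians left of 0 with wide spread.

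The called genes differed in genomic length, the distance from the first to the last base of the gene in the RefSeq table, which could be matched by name for 91.6% of genes tested. The median span was 58.6 kb for genes called higher and 6.27 kb for genes called lower, against 25.4 kb over all. Among the 31 genes called in both fits it was 55.6 kb for those that rose and 4.54 kb for those that fell. Genes were split by span into 10 bins of 1300 or 1301. In the bin of the shortest genes (0.415 to 4.67 kb), 172 of 1301 were called lower (13.2%) and 3 higher, with a median log2 fold change of -0.16. In the 2 bins of the longest genes, 67 and 37 were called higher and 4 and 5 lower, with medians of 0.10 and 0.12. From short to long genes the median thus passed from below 0 to above 0, and the lists above with the most calls are lists of short genes (median span 3.13 kb for cytosolic ribosomal proteins and 7.18 kb for nuclear respiratory chain subunits).

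**Figure D3:**
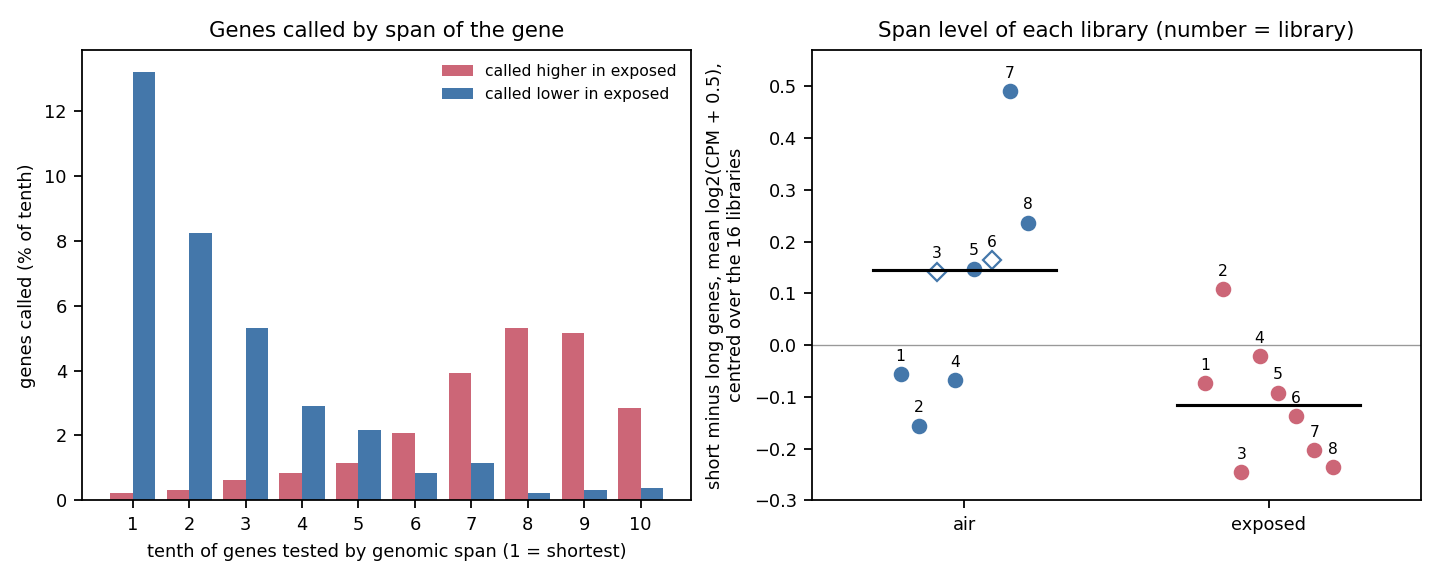
Left, share of genes called higher and lower in exposed lungs in each of 10 bins of genes by genomic span, where the bin of the shortest genes has 13.2% called lower. Right, span level of each of the 16 libraries, the mean log2(CPM + 0.5) of the 2601 shortest genes minus that of the 2601 longest, with numbers for libraries, diamonds for air libraries 3 and 6 and bars for medians (0.145 in air and -0.115 in exposed lungs).

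A span level was computed for each library as the mean log2(CPM + 0.5) of the 2601 shortest genes minus that of the 2601 longest, centred over the 16 libraries. It ran from -0.156 to 0.491 in the air group and from -0.245 to 0.108 in the exposed group, so the groups overlapped: air libraries 1, 2 and 4 lay in the exposed range and exposed library 2 lay above them but below the other 5 air libraries. Its correlation with the first principal component, which held 22.7% of the variance, was 0.99 by Pearson's r over 16 libraries that share the same genes and scaling. Air library 7 had the highest of the 8 air values in 326 of the 473 genes called lower (68.9%), against 22.2% of all genes tested, and air library 2 the lowest in 230 (48.6%, against 17.9%). Exposed library 2 was the highest exposed library in 271 of them (57.3%, against 18.2%). With the span level as a covariate, an alternative chosen after seeing the data, 10 genes were called (0.0705%), and 4 of them were among the 783: Rps29, Rrbp1, Smurf2 and Hsp90b1, each with an adjusted p of 0.0245. The log2 fold changes of these 4 were then -0.23, 0.20, 0.17 and 0.33. The list medians became -0.071 for cytosolic ribosomal proteins, with 63 of 71 still below 0, and -0.057 for nuclear respiratory chain subunits, with 57 of 69. The covariate itself differs between the groups in median. The part of the span level in the results was not tested.

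Of 20 B lymphocyte and plasma cell genes tested, 3 fell and 0 rose in exposed lungs, against 3.33% of all genes called lower, and all 20 log2 fold changes were below 0, with a median of -0.45. Fcrla, an Fc receptor-like protein inside B cells, ran from 19.7 to 42.0 CPM (median 27.2) in air and 15.1 to 23.2 CPM (median 16.7) in exposed lungs, and only exposed library 2 reached into the air range (log2 fold change -0.71 ± 0.16, adjusted p = 0.0288). Cd79a, a signalling chain of the B cell receptor, ran from 22.1 to 58.7 CPM (median 30.8) in air and 14.7 to 28.8 CPM (median 20.2) in exposed lungs (log2 fold change -0.80 ± 0.2, adjusted p = 0.0373). Its highest air values, 53.6 and 58.7 CPM, were those of air libraries 3 and 6. Fcer2 (CD23), the low-affinity IgE receptor of mature B cells, ran from 6.82 to 12.1 CPM (median 9.43) in air and 5.89 to 8.92 CPM (median 6.31) in exposed lungs (log2 fold change -0.48 ± 0.14, adjusted p = 0.0498), and the pair again held the highest values, 12.0 and 12.1 CPM. Of genes tied to antibody secretion, Igkc had -0.053 ± 0.27, Mzb1 -0.0051 ± 0.25 and Ighm -0.21 ± 0.22, and none of them was called; they were named after their values were seen. No B cell gene was called in the summed fit. The list median was -0.35 in the summed fit and -0.20 with the pair left out, where 16 of 20 were below 0, and -0.29 with the span level as a covariate. In a piece of whole lung, fewer cells of a type and less RNA per cell cannot be told apart.

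Of the list of lymphoid tissue stroma and venules 1 of 5 genes fell, Ltb, and of T cell genes 1 of 22 (4.55%), against 3.33% of all genes called lower. Ccr7, the receptor that guides naive T cells and dendritic cells to lymphoid tissue, ran from 10.3 to 20.7 CPM (median 16.2) in air and 7.13 to 13.8 CPM (median 10.3) in exposed lungs, with 4 exposed libraries below all air libraries (log2 fold change -0.57 ± 0.15, adjusted p = 0.0353). Ltb, a lymphotoxin chain needed to build lymphoid tissue, ran from 18.1 to 30.9 CPM (median 24.1) in air and 13.7 to 21.5 CPM (median 19.1) in exposed lungs (log2 fold change -0.42 ± 0.1, adjusted p = 0.0338). The follicle chemokine Cxcl13 and the T zone chemokine Ccl19 had -0.71 ± 0.33 and -0.75 ± 0.35 and did not pass (adjusted p = 0.178 for each). All 5 genes tested in the list that holds Ltb were below 0, with a median of -0.42, the value of Ltb itself (-0.41 in the summed fit and -0.39 with the pair left out). With the span level as a covariate that median was -0.23, with 4 of 5 below 0. The genes of that list are short, with a median span of 1.85 kb. Of the T cell genes 17 of 22 were below 0 and the median was -0.14, and -0.088 with the span level as a covariate. The coreceptors Cd4 (0.14 ± 0.12) and Cd8a (-0.15 ± 0.15) did not pass. Of 13 natural killer and cytotoxic cell genes, edgeR called 0, with 1 at an unadjusted p under 0.05, and the median was -0.10. With the span level as a covariate that median changed sign, to 0.088 with 8 of 13 above 0.

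Of 13 mast cell and basophil genes, Mcpt8, a basophil protease, was the 1 called lower, against 3.33% of all genes. It ran from 6.82 to 22.9 CPM (median 13.4) in air and 4.35 to 9.94 CPM (median 8.27) in exposed lungs, with exposed values inside the wide air range in 5 libraries (log2 fold change -0.89 ± 0.25, adjusted p = 0.0481). The tryptase genes Tpsab1 and Tpsb2 had -1.11 ± 0.38 and -0.85 ± 0.36 and did not pass. The receptor gene Kit, which other lung cells also express, had 0.0092 ± 0.053. The list median was -0.53 (-0.38 in the summed fit, -0.29 with the pair left out and -0.25 with the span level as a covariate). The pair had 18.9 and 22.9 CPM of Mcpt8, the third and the highest air value. Of 12 neutrophil genes edgeR called 0, with 2 at an unadjusted p under 0.05 and S100a8 and S100a9 at -0.26 ± 0.3 and -0.016 ± 0.29. Their median was -0.18, and 0.15 with the span level as a covariate, a change of sign.

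Macrophage genes moved in both directions. Cd163, the haemoglobin scavenger receptor of tissue macrophages, ran from 2.90 to 4.35 CPM (median 3.38) in air and 3.12 to 6.24 CPM (median 5.10) in exposed lungs and rose (log2 fold change 0.49 ± 0.14, adjusted p = 0.0462). Of the 15 monocyte and interstitial macrophage genes it was the 1 called, against 2.18% of all genes called higher. In this list 13 were above 0 and the median was 0.12. Pparg, a factor that maintains alveolar macrophages, ran from 14.8 to 25.4 CPM (median 19.4) in air and 14.3 to 16.9 CPM (median 16.1) in exposed lungs and fell (log2 fold change -0.33 ± 0.093, adjusted p = 0.0441), with 2 exposed libraries below all air libraries and the highest air values in the pair, 23.4 and 25.4 CPM. Of 12 alveolar macrophage genes, Pparg and Cidec were called lower, against 3.33% of all genes. The list median was -0.073, and 0.048 with the pair left out, a change of sign. Cidec, a lipid droplet protein, also stands in the list of fat genes, of which 4 were tested. There Cidec was the 1 called, Cfd (-0.43 ± 0.15) and Cidea (-0.40 ± 0.17) were lower at an unadjusted p under 0.05, Lpl had 0.19 ± 0.12 and the median was -0.41. The defining fat cell genes were too low to test, with Adipoq at 0.0786 to 0.773 CPM (median 0.399) in air and 0.174 to 0.846 CPM (median 0.298) in exposed lungs and Plin1 at 0 in every exposed library and at most 0.193 CPM in air.

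Of 17 genes of lipid-loaded and lysosome-rich macrophages, 3 fell, Apoe, Acp5 and Lyz2, and 0 rose, against 3.33% of all genes called lower. Apoe, a lipid carrier, and Acp5, an acid phosphatase of macrophages and osteoclasts, had -0.32 ± 0.076 and -0.45 ± 0.12; Acp5 stood at 74.3 and 70.6 CPM in the pair, the highest values of the 16 libraries. Lyz2, a lysozyme, ran from 15766 to 20993 CPM (median 18865) in air and 14126 to 17551 CPM (median 15162) in exposed lungs (log2 fold change -0.24 ± 0.065, adjusted p = 0.0432). Lyz2 also stands in the lists of alveolar type 2 cells and secreted innate defence. There it was the 1 called of 12 and the 1 called of 11 genes tested. Which cells its fall came from was not tested. Spp1, Trem2 and Gpnmb, typical of macrophages loaded with particles or lipid, had 0.50 ± 0.3, 0.17 ± 0.16 and -0.0064 ± 0.085 and did not pass, and were named after their values were seen. The list median was -0.039, and 0.049 with the span level as a covariate, a change of sign.

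Of 15 genes of antigen presentation and dendritic cells, the invariant chain Cd74 fell and Zbtb46, a factor of conventional dendritic cells that endothelium also expresses, rose. Over all genes 3.33% were called lower and 2.18% higher. Cd74 ran from 1491 to 1958 CPM (median 1827) in air and 1355 to 1689.5 CPM (median 1552) in exposed lungs (log2 fold change -0.22 ± 0.059, adjusted p = 0.0396), and Zbtb46 from 14.0 to 21.6 CPM (median 18.3) in air and 19.7 to 24.98 CPM (median 22.8) in exposed lungs (log2 fold change 0.32 ± 0.083, adjusted p = 0.0371). The class II chains RT1-Da, RT1-Db1 and RT1-Ba had -0.088 ± 0.062, -0.14 ± 0.059 and -0.16 ± 0.11 and did not pass. Of 18 chemokine genes and 20 interferon-stimulated genes, edgeR called 0, with 5 and 1 at an unadjusted p under 0.05 and list medians of -0.036 and 0.018. Among all 14192 genes tested, 3790 had such a p. None of the immune genes that rose or fell here passed in the summed fit, where their adjusted p was 0.059 to 0.0959.

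**Figure D4:**
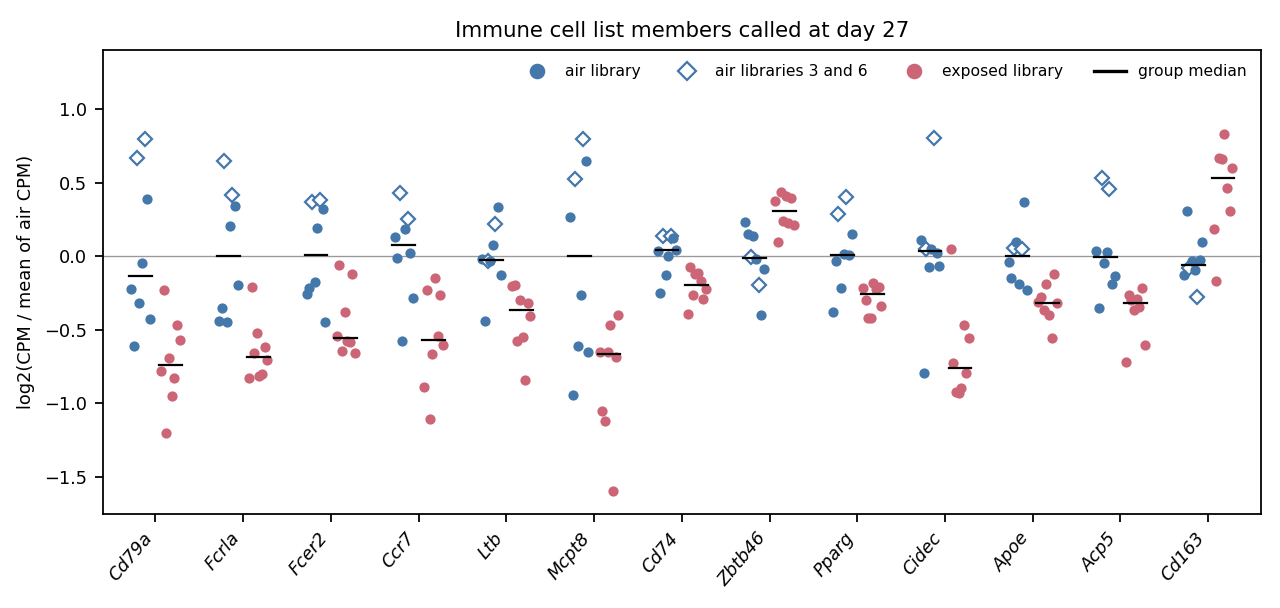
Level in every library of 13 immune cell list members called at day 27, as log2 of CPM over the mean of the air group with libraries 3 and 6 averaged. Diamonds mark air libraries 3 and 6, which hold the highest air values of Cd79a, Fcrla, Fcer2, Ccr7, Pparg, Acp5 and Cd74, and bars are group medians.

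Besides Hsp90b1, the ER membrane chaperone Canx was called higher of 28 ER chaperone and stress genes, against 2.18% of all genes called higher. Canx ran from 802 to 882 CPM (median 847) in air and 839 to 999.5 CPM (median 932) in exposed lungs (log2 fold change 0.15 ± 0.039, adjusted p = 0.0342, and 0.0647 summed). Hspa5 (BiP), a common marker of ER stress, ran from 522 to 737 CPM (median 606) in air and 581 to 890.1 CPM (median 743) in exposed lungs and did not pass (log2 fold change 0.24 ± 0.087, adjusted p = 0.0966). Of the genes of the stress response proper, Ddit3 had 0.10 ± 0.11, Atf4 -0.041 ± 0.055 and Herpud1 0.0084 ± 0.054, none of them called. The list median was 0.063, with 19 of 28 above 0, and 0.10 with the span level as a covariate, where 26 were above 0. Of 20 heat shock genes, edgeR called 0, 17 were above 0 and the median was 0.19. An unadjusted p under 0.05 was found upwards for 9 and downwards for 2, against 3790 of all 14192 genes in both directions together. Hspa1b, a stress-inducible HSP70, ran from 29.7 to 244 CPM (median 51.2) in air and 24.2 to 547 CPM (median 127) in exposed lungs, a spread within each group wider than the difference (log2 fold change 1.30 ± 0.66, adjusted p = 0.222).

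In the TGF-beta pathway, the receptor Tgfbr1 and the ligase Smurf2 were called higher of 20 genes, against 2.18% of all genes. In this list 16 were above 0 and the median was 0.11. Tgfbr1 ran from 90.6 to 118 CPM (median 109) in air and 117 to 142 CPM (median 128) in exposed lungs, with 1 exposed library below the highest air library (log2 fold change 0.25 ± 0.055, adjusted p = 0.0288). The ligands Tgfb1, Tgfb2 and Tgfb3 had -0.10 ± 0.05, 0.063 ± 0.062 and -0.11 ± 0.07 and did not pass. These genes are long, with a median span of 68.8 kb, and with the span level as a covariate the list median was 0.037, with Smurf2 the 1 called. Adamts9, a protease that cleaves matrix proteoglycans, ran from 37.6 to 51.2 CPM (median 43.2) in air and 46.5 to 84.8 CPM (median 60.2) in exposed lungs (log2 fold change 0.49 ± 0.095, adjusted p = 0.0208). It had the larger rise of the 2 genes called among 18 matrix protease genes tested. The other was Timp3, an inhibitor of such proteases (log2 fold change 0.24 ± 0.065, adjusted p = 0.0417). Pdgfra, the growth factor receptor of lung fibroblasts, ran from 247 to 313 CPM (median 269) in air and 270.3 to 366 CPM (median 316) in exposed lungs and was the 1 called of 20 fibroblast and matrix genes (log2 fold change 0.23 ± 0.064, adjusted p = 0.0444), whose median was 0.051. None of these but Smurf2 passed in the summed fit.

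In endothelium, Slc6a2, the noradrenaline transporter that lung capillaries express, ran from 19.8 to 36.7 CPM (median 29.3) in air and 27.1 to 66.0 CPM (median 43.9) in exposed lungs, with 7 exposed libraries above all air libraries (log2 fold change 0.63 ± 0.16, adjusted p = 0.0349). Plvap, which forms the diaphragms of endothelial pores, and the receptor Tie1 fell, with -0.20 ± 0.048 and -0.17 ± 0.04. None of these 3 passed in the summed fit (adjusted p = 0.0590, 0.0621 and 0.0590). The other 21 of 24 endothelial genes were not called, among them Cdh5 (-0.00079 ± 0.042), and the median was -0.039. Of all genes tested, 2.18% were called higher and 3.33% lower. Fgd5, an activator of Cdc42 known from endothelium, rose without overlap, from 142 to 160.4 CPM (median 150.0) in air and 164 to 222 CPM (median 179) in exposed lungs (log2 fold change 0.28 ± 0.054, adjusted p = 0.0208, and 0.0512 summed).

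Further genes without overlap between the groups were the potassium channel gene Kcnd3 (0.33 ± 0.067), the scaffold gene Mpp6 (0.23 ± 0.061), Rabep1 (0.22 ± 0.043) and Vps37a (0.22 ± 0.051) of endosomal sorting and Zfp347 (0.24 ± 0.065), all higher. Lower were Hoxa3 (-0.30 ± 0.067), a gene of the body plan, the calcium sensor S100a1 (-0.44 ± 0.11), the adaptor Sh2b2 (-0.37 ± 0.086), the tubulin-modifying enzyme subunit Tpgs1 (-0.35 ± 0.075) and Tsfm (-0.37 ± 0.081), a mitochondrial elongation factor. Their adjusted p was 0.0208 to 0.0403 with 16 libraries and 0.0512 to 0.0676 in the summed fit.

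Other lists held few calls, where 2.18% of all genes were called higher and 3.33% lower. Zbtb16, a glucocorticoid-induced transcription factor, ran from 2.84 to 7.28 CPM (median 6.91) in air and 5.98 to 91.1 CPM (median 13.8) in exposed lungs and was the 1 called of 16 such genes (log2 fold change 2.06 ± 0.56, adjusted p = 0.0465); it passed in 2 of the 16 fits that left out 1 library, and exposed library 4 stood at 91.1 CPM. Sphk1, which makes sphingosine 1-phosphate, fell, at 0.988 to 3.06 CPM (median 1.47) in air and 0.470 to 1.04 CPM (median 0.778) in exposed lungs (log2 fold change -0.97 ± 0.23, adjusted p = 0.0322), the 1 called of 13 genes of that pathway. Gstp1 was the 1 called of 17 NRF2 targets (log2 fold change -0.27 ± 0.071, adjusted p = 0.0382), Ctsa the 1 of 25 lysosomal genes (log2 fold change -0.14 ± 0.037, adjusted p = 0.0419) and Tppp3 the 1 of 14 genes of ciliated cells (log2 fold change -0.28 ± 0.074, adjusted p = 0.0373). None of these 5 passed in the summed fit, where their adjusted p was 0.0590 to 0.0796. Zbtb16 was not alone in losing its call when 1 library was left out. Mcpt8 passed in 2 of those 16 fits and Cd163, Lyz2, Timp3 and Mt-nd3 in 3 each, while Adamts9 and Fgd5 passed in 15. The aryl hydrocarbon receptor targets (6 tested), p53 targets (12), clock genes (16), immediate early genes (17), cell cycle genes (19) and genes of alveolar type 1 cells (11) and smooth muscle (11) held 0 calls. The edgeR fit found 0, 3, 1, 5, 1, 3 and 2 of them at an unadjusted p under 0.05, against 3790 of all 14192 genes tested.

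Of genes of heart and pulmonary vein muscle, skeletal muscle, mesothelium and red blood cells, edgeR called 0 and found 0 at an unadjusted p under 0.05. Of 4 genes of nerve and Schwann cells it called 0 and found 1, while fat genes are given with Cidec. The summed level of heart and pulmonary vein muscle genes ran from 46.8 to 412 CPM in the air libraries and 16.8 to 350.2 CPM in the exposed libraries, and that of red blood cell genes from 1154 to 1705 CPM in the air libraries and 1036 to 1827 CPM in the exposed libraries. The summed level of club cell genes ran from 9415 to 13271 CPM in the air libraries and 4779 to 10467 CPM in the exposed libraries, overlapping between groups, with 0 of 10 called by edgeR and 1 at an unadjusted p under 0.05. The secretoglobin Scgb1a1 had -0.37 ± 0.17 (adjusted p = 0.169).

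Whether the exposure effect at day 27 differed from the earlier days was tested in a single fit of all 48 libraries, as the day 27 effect minus the mean of the effects at days 1 and 7. This contrast called 152 of 14852 genes (1.02%), 78 above and 74 below, and 130 of them were among the 783 genes of day 27. Of the 31 genes called in both day 27 fits, 18 passed. These 31 were chosen by a day 27 effect that is part of the contrast, so a pass was likely in advance. In an alternative, 1 close pair of libraries was summed in the exposed group of day 1, both groups of day 7 and the air group of day 27. No pair was summed in the other groups. Then 3 genes passed, Eif5b, Rrbp1 and Ehd4, and with the span level as a covariate 47 did.

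Eif5b had log2 fold changes of 0.23 at day 27, -0.053 at day 1 and -0.039 at day 7 (adjusted p of the difference = 0.00280, and 0.00568 with close pairs summed). Rrbp1 had 0.27 at day 27, 0.0023 at day 1 and 0.0066 at day 7 (adjusted p of the difference = 0.00412, and 0.0194 with close pairs summed). Both had thus risen at day 27 and lay near 0 before. Smurf2 had 0.26 at day 27, -0.041 at day 1 and 0.093 at day 7 (adjusted p of the difference = 0.0112, and 0.0679 with close pairs summed), and Slmap, a membrane-anchored protein of muscle and centrosomes, 0.24 at day 27, -0.021 at day 1 and 0.0057 at day 7 (adjusted p of the difference = 0.0221, and 0.0779 with close pairs summed). Ypel3 had -0.33 at day 27, 0.032 at day 1 and -0.021 at day 7 (adjusted p of the difference = 0.0218, and 0.0679 with close pairs summed). Ehd4, which recycles membrane receptors, was of another kind, with 0.037 at day 27, -0.20 at day 1 and -0.10 at day 7 (adjusted p of the difference = 0.00482, and 0.0243 with close pairs summed): its values were below 0 at the early days and near 0 at day 27.

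**Figure D5:**
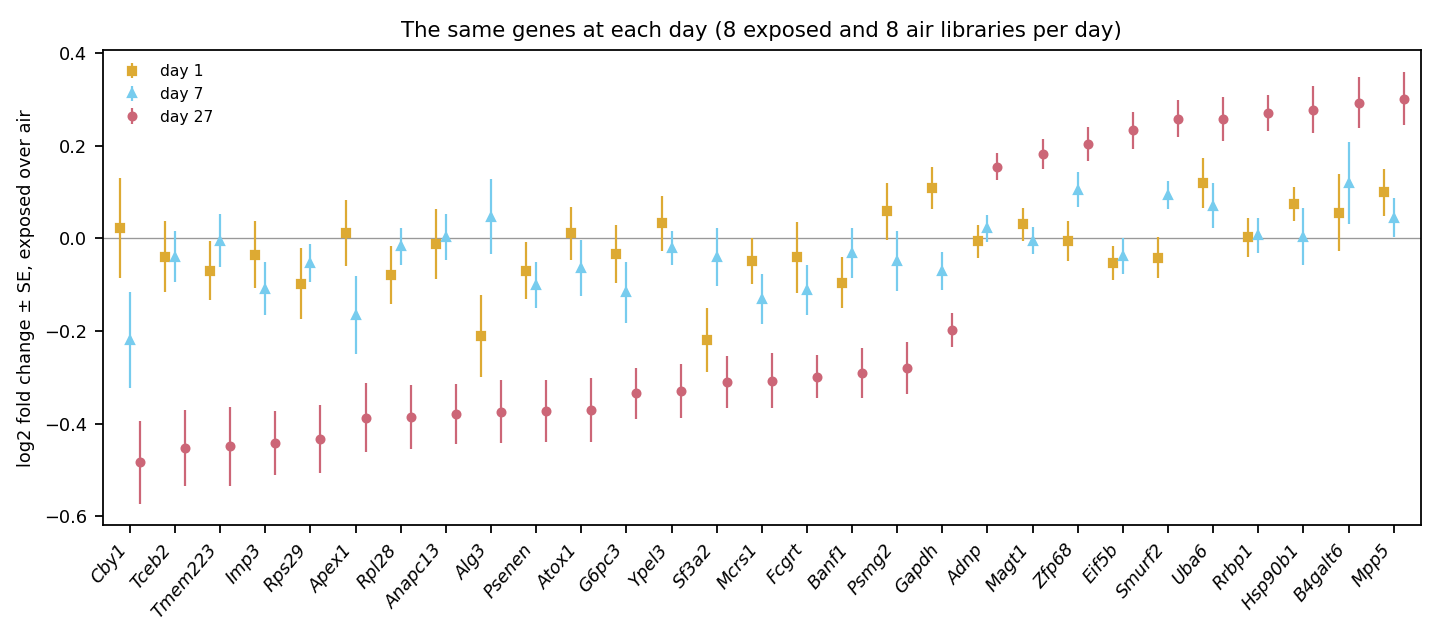
Log2 fold change of exposed over air lungs with its SE at days 1, 7 and 27 for the 29 named genes called in both day 27 fits, each day fitted by itself with 8 exposed and 8 air libraries. The values at day 27 lie away from 0 by the choice of genes, and all 29 lie nearer to 0 at days 1 and 7 than at day 27.

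List medians at days 1, 7 and 27 were -0.063, -0.0065 and -0.23 for cytosolic ribosomal proteins, -0.03, -0.038 and -0.20 for nuclear respiratory chain subunits, and -0.13, 0.044 and -0.45 for B and plasma cells. The span level over all 48 libraries had group medians of 0.262 in air and 0.00250 in exposed lungs at day 27, of 0.0172 and -0.0183 at day 1 and of -0.175 and -0.182 at day 7. The air group of day 27 had the highest median of the 6 groups, and the gap between air and exposed lungs was widest at that day.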

How the data were processed

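Expected counts per gene, estimates of fragments that need not be whole, were deposited by the authors for 32285 gene identifiers, 1 table per day, without normalization. Per the submitters' processing notes, Salmon 1.10.1 and STAR 2.6.1d were used with build Rnor_6.0 together with Trim Galore 0.6.7, cutadapt 3.4 and bcl2fastq 2.19; roles and settings are not given in the sources used here. Per library 5.5% of values were not whole (tolerance 1e-06), and all were rounded.

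Genes were tested with edgeR 4.0.16 (R 4.3.3; TMM factors, filterByExpr, robust quasi-likelihood F test, Benjamini-Hochberg over all genes tested, threshold 0.05); adjusted p in the text are from it. SE is the log2 fold change over the square root of F. CPM uses TMM factors. Where identifiers share a name, a list gene is the one with most counts. The 49 lists, 1019 of whose 1050 entries had a row, and the comparison itself were chosen with earlier results of these data known. Named genes are those called in both fits with at least 1 CPM and no provisional name, the 12 largest rises and 12 largest falls without overlap, up to 3 called members per list and 6 genes of the contrast between days; other list members were named after their values were seen. Alternatives used DESeq2 1.42.0, limma-voom 3.58.1, sva 3.50.0, RLE factors, other filters, a depth covariate and each library left out. The steps were tested on simulated data. Some single-gene results are not reported here. No coordinates of the files' build are given, and p-values set differences against the spread between libraries, without a term for cage.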

Additional observations from a re-analysis of the deposited data

Results flagged for a closer look

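In 14 of the 172 groups of 8 libraries checked, a library stood far from the 7 others of its group, by a gap larger than Dixon's 95% limit for 8 values. About 1 in 20 groups does so by chance. Far above their groups were Tmem223 in exposed library 2 (26.5 CPM), Fgd5 in exposed library 3 (222 CPM), Fcrla in exposed library 2 (23.2 CPM), Cidec in air library 6 (6.87 CPM), Cidec in exposed library 1 (4.07 CPM), Zbtb16 in exposed library 4 (91.1 CPM), Mrpl17 in air library 7 (84.8 CPM), Sphk1 in air library 6 (3.06 CPM), Plvap in exposed library 1 (1178 CPM) and Adamts9 in exposed library 3 (84.8 CPM). Far below were Alg3 in exposed library 8 (10.4 CPM), S100a1 in exposed library 3 (2.71 CPM), Tsfm in exposed library 5 (6.02 CPM) and Mrps17 in exposed library 6 (19.3 CPM). Exposed library 3 accounts for 3 of them.

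Checked here were the named genes called in both day 27 fits and those chosen from the contrast between days. For 19 of them the effect at day 27 differed from the mean effect at days 1 and 7 by the test of that difference (edgeR, 152 genes called in all). A pass was likely in advance. The genes from the contrast were picked by smallest p in this same test, and the others by a day 27 effect that enters it. On the log2 scale the day 27 effect was above the earlier ones in Rrbp1 (0.27), Adnp (0.15), Smurf2 (0.23), Eif5b (0.28), Hsp90b1 (0.24), Magt1 (0.17), Ehd4 (0.19) and Slmap (0.25). It was below them in Rps29 (-0.36), Tceb2 (-0.41), Anapc13 (-0.37), Atox1 (-0.34), Rpl28 (-0.34), Imp3 (-0.37), Psmg2 (-0.28), Gapdh (-0.22), Tmem223 (-0.41), Ypel3 (-0.33) and Psenen (-0.29). With close pairs summed, 3 of these, Eif5b, Rrbp1 and Ehd4, passed. Genes named by the other rules passed the test of the difference too. They were Eif3a, Hnrnpa3 and Zbtb16 above the earlier effects and Cox5b, Fcrla, Ctsa, Sh2b2 and Tpgs1 below. None of the latter genes passed with close pairs summed.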

How the results depend on the processing

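Of 88 named genes called with 16 libraries, none changed direction under any alternative run. They were picked from these same libraries, so a kept direction was likely in advance. Of the 89 named genes with a fit, 57 were weaker with the pair summed, 83 with it averaged and 88 with it left out. With the span level as covariate 84 lost it, and without exposed library 3, 79 did. The 783 genes called became 31 with air libraries 3 and 6 summed, 5 with them averaged, 0 with both left out (2721 at an unadjusted p under 0.05), 1621 with DESeq2, 474 when no low-count filter was used, 57 with 1 surrogate variable and 10 with the span level as covariate. Leaving out 1 library each gave 9 to 1926. RLE factors (813), a minimum of 1 CPM (793), limma-voom (753) and a depth covariate (967) kept the count within 1.5 times. The 31 genes of the summed fit became 1106 with DESeq2, 5 with the span level and 0 to 1079 when 1 library was left out. Of those fits, 10 called 0, where 2371 to 3175 genes had an unadjusted p under 0.05, while leaving out air library 1, air library 2 or exposed library 2 gave 156, 1079 and 794, and air library 4 gave 1. The 152 genes of the contrast between days became 3 with pairs summed, 40 without a filter and 47 with the span level. The cause of these changes was not tested. With the pair averaged, the difference in totals was -1.31%. No paired analysis was possible because the labels give the groups no shared replicate numbers. The span level and the omission of both libraries of the pair were added after seeing the data.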
